A study of Rattus norvegicus with 16 samples.

Results

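Genes that mark the GABA-releasing interneurons of the cortex were described in frontal cortex from Sprague-Dawley rats, all male. The 10 genes are Gad1, Gad2, Slc32a1, Sst, Vip, Npy, Cck, Pvalb, Calb2 and Crh. Each was found by its symbol in a table of 28168 loci, and the locus with the highest mean over the 16 libraries stood for it. The rats were 11 weeks old at the start and were fed for 7 weeks. The chow group received the chow diet, and the other 3 groups shared a high fat diet. HF received that diet alone, HF_PBS also received intraperitoneal PBS, the vehicle, for 10 days, and HF_5AzaD received 5-AzaD dissolved in PBS over the same number of days. Each group had 4 RNA libraries, named by the replicate numbers of the sample titles: chow 1 to 4, HF 5 to 8, HF_PBS 1 to 4, and HF_5AzaD 3, 5, 6 and 7. The titles of the HF_PBS samples carry the letters HFD, which the design text uses for the diet alone, so the groups follow the stated treatment. The labels do not say that each library came from a separate rat, so each p-value rests on the spread among libraries, which may be technical.

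Interneurons are a minority of cortical neurons and restrain the excitatory pyramidal cells around them. They make GABA from glutamate with the enzymes encoded by Gad1 and Gad2 and load it into synaptic vesicles with the transporter encoded by Slc32a1. Their classes are told apart by what else they make: parvalbumin (Pvalb) in fast-spiking basket and chandelier cells, somatostatin (Sst) in cells that inhibit dendrites, and vasoactive intestinal peptide (Vip) or calretinin (Calb2) in cells that often inhibit other interneurons. Neuropeptide Y (Npy), cholecystokinin (Cck) and corticotropin-releasing hormone (Crh) are made by further subsets, and Cck is also expressed in pyramidal cells. In such bulk tissue, fewer cells of a class and less RNA per cell cannot be told apart.

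The start regions of 4 of the genes are shown because Gad1, Gad2 and Slc32a1 moved together across libraries and Sst came nearest to the test's threshold. Each holds 250 bases before and 50 bases from the annotated start, 5′ to 3′, from RefSeq on GRCr8, a later build than the rn5 named for the table. Capitals mark matches on either strand to TGACGTCA (the cyclic AMP response element), TGACG (its first 5 bases, also within it), TAATTA (a core of many homeodomain sites) or TATAAA (the TATA box).
Gad1 (chr3:75777202-75777501, plus strand): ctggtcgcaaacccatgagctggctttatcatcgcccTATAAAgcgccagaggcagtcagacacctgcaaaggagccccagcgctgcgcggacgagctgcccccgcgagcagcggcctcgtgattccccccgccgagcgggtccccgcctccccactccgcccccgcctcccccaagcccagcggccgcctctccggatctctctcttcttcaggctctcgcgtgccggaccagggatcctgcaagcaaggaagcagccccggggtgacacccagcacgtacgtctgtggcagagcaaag
Gad2 (chr17:89671468-89671767, plus strand): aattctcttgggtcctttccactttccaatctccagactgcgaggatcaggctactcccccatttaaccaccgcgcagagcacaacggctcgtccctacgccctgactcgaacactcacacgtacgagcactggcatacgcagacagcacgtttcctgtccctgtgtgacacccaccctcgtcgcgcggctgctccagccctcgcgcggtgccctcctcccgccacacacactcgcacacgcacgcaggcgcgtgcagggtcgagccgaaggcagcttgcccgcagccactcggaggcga
Slc32a1 (chr3:167686995-167687294, plus strand): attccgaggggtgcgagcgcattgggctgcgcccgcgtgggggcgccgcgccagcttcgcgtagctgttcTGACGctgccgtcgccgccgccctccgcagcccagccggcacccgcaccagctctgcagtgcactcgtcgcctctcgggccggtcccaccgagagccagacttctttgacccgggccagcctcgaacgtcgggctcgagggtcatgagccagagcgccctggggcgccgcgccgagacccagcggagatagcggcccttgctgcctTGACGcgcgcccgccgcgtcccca
Sst (chr11:90461296-90461595, plus strand): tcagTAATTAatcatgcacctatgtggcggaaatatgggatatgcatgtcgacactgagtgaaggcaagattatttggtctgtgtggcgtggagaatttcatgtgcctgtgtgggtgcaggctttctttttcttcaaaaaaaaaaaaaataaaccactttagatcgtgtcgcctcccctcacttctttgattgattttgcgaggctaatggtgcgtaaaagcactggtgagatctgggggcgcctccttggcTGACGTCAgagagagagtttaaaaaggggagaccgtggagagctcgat
The full TGACGTCA was found in 1.83% of all 33469 start regions of the same length, and of the 7 members with an entry only Sst held it, at bases 253 to 260 of its window. Slc32a1 held TGACG at 2 places, and that shorter word was found in 21.2% of all start regions. TAATTA, in 5.36% of them, stood in the Sst window. TATAAA, in 14.2%, stood in that of Gad1 at bases 38 to 43, with its first base at -213 from the start. Vip, whose window is not shown, held TATAAA at bases 76 to 81, 86 to 91 and 203 to 208. TGACG also stood in Vip at bases 154 to 158 and in Pvalb at bases 10 to 14. The window of Gad2 held none of the 4 words. The share of G and C was 67.7% in the start region of Gad1, 63.7% in Gad2, 73.7% in Slc32a1, 67.7% in Npy, 60.7% in Pvalb, 45.7% in Sst and 44.0% in Vip, beside a median of 51.7% over all start regions.

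Levels are given in FPKM, fragments scaled to transcript length and to the mapped fragments of a library, a measure per length that allows genes to be compared. The files give no depth in reads. Relative depth, read from the smallest steps of the values, ran from 30.2% to 100% of the deepest library, and 23064 to 24333 loci were above 0 in each. Libraries did not hold the same mix of tissue by their marker genes. Slc17a7, the vesicular glutamate transporter of cortical pyramidal cells, was at 413 to 823 FPKM in 15 libraries and at 132 FPKM in HF_PBS 3. The summed level of 17 striatal genes was 1289 FPKM in HF 8 and 638 to 818 FPKM in HF_PBS 2, 3 and 4, against 256 to 500 FPKM elsewhere. Among them, the dopamine receptor gene Drd2 was at 30.7 FPKM in HF 8, at 12.4 to 13.7 FPKM in HF_PBS 2 to 4 and at 0.741 to 4.88 FPKM in the others. A list of 14 hypothalamic and septal genes, chosen after their values were seen, summed to 1508 FPKM in HF_PBS 3, 1157 in HF_5AzaD 5, 740.5 in HF_5AzaD 7, 538.7 in HF_PBS 4, 394.8 in HF 8 and 326.2 in HF_PBS 2. The other libraries had sums of 45.7 to 152 FPKM. No gene of either list was at 0 in all libraries.

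None of the interneuron genes passed the test between any of the groups. The test was limma on log2(FPKM + 0.5) with Benjamini-Hochberg adjustment over all 14824 loci of sufficient level, called under an adjusted p of 0.05; 9 of the 10 genes reached that level and Npy did not. For HF against chow, 0 of 9 were called and 0% of all loci, and for HF_5AzaD against HF_PBS, also 0 of 9 and 0%. At an unadjusted p under 0.05 these comparisons held 0 and 1 of the 9 genes, and 1020 and 1100 of all loci. The calls lay between injected and uninjected groups: 23.9% of loci for HF_PBS against HF, 28.2% for HF_PBS against chow, 16.3% for HF_5AzaD against chow and 14.2% for HF_5AzaD against HF. The interneuron genes had 0 of 9 in each of these 4, with 1, 1, 0 and 0 at an unadjusted p under 0.05. Injection, handling and any processing that followed the injected groups cannot be told apart. The comparisons share groups, so their results are not independent of each other.

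The median log2 difference of the 9 genes was -0.05 for HF against chow and -0.38 for HF_5AzaD against HF_PBS, beside -0.01 and 0.01 over all loci tested. It was 0.36 for HF_PBS against HF, 0.24 for HF_PBS against chow, -0.17 for HF_5AzaD against chow and 0.03 for HF_5AzaD against HF, where the medians over all loci were 0.00 to 0.02. Of the 54 differences, 12 were at least 0.5 on the log2 scale in either direction. The libraries of a group also varied more for these genes than for most loci. The within-group SD on the log2 scale was 0.32 for Gad1, 0.40 for Sst, 0.45 for Slc32a1, 0.47 for Crh, 0.52 for Gad2 and for Vip, 0.67 for Cck, 0.87 for Pvalb and 1.15 for Calb2, against a median of 0.23 over all loci tested. Calb2 stood at the 98.3 percentile of that spread, Pvalb at 96.6 and Gad1 at 69.6.

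**Figure D1:**
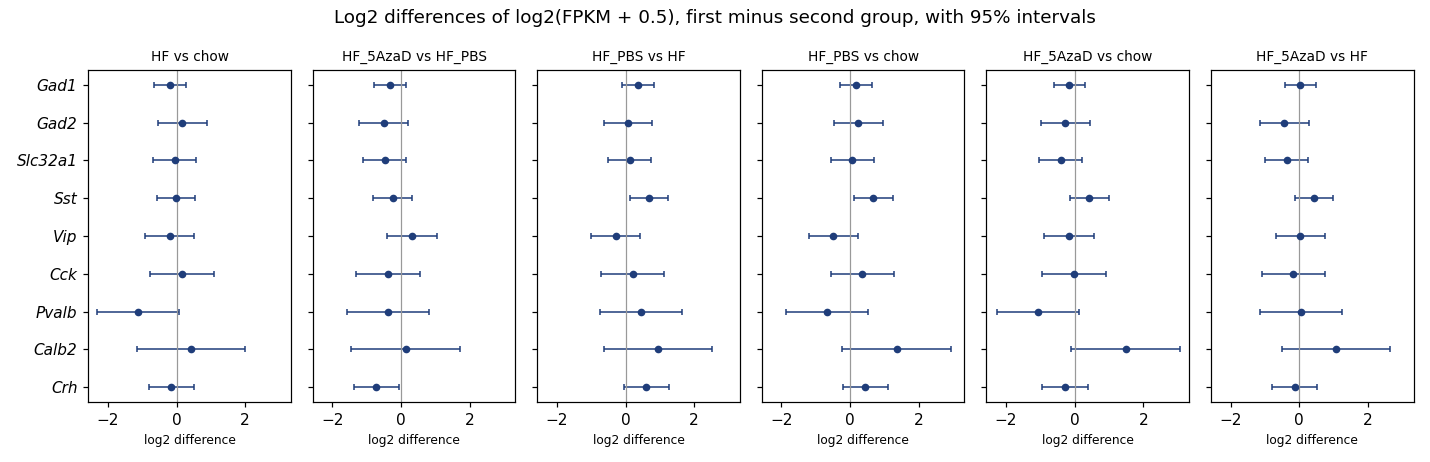
Log2 differences of the 9 tested interneuron genes in the 6 comparisons, as log2(FPKM + 0.5) of the first group minus the second, with 95% intervals from limma (4 libraries per group). The intervals are narrowest for Gad1 and widest for Calb2, and those of Sst for HF_PBS against HF and against chow lie above 0.

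Gad1, Gad2 and Slc32a1, which make and package GABA, passed in no comparison and were each highest in the same pair of libraries. Gad1, the main source of GABA in cell bodies, was at 105, 82.0, 94.6 and 78.0 FPKM in chow 1 to 4 and at 62.3, 77.4, 60.1 and 129 FPKM in HF 5 to 8. In HF_PBS 1 to 4 it was at 88.5, 106, 129 and 84.2 FPKM, and in HF_5AzaD 3, 5, 6 and 7 at 92.6, 69.0, 72.0 and 89.9 FPKM. The highest libraries were HF 8 and HF_PBS 3, and every pair of groups overlapped. For HF_PBS against HF the difference was 0.36 (SE 0.21, 95% interval -0.10 to 0.82, adjusted p = 0.234) on the log2 scale. Without HF 8 alone it was 0.60 (adjusted p = 0.0257), past the threshold. HF 8 is the highest HF library for Gad1, so leaving it out had to raise this difference.

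Gad2, whose enzyme is concentrated at nerve terminals, was at 38.1, 30.0, 35.0 and 37.0 FPKM in chow and at 25.3, 47.6, 24.9 and 79.4 FPKM in HF. It was at 31.3, 48.7, 70.7 and 27.0 FPKM in HF_PBS and at 29.5, 29.7, 25.3 and 31.3 FPKM in HF_5AzaD, in the same order of libraries. HF 8 and HF_PBS 3 were again the highest, whereas the chow and HF_5AzaD libraries lay close together, at 35.0 ± 3.59 FPKM and 29.0 ± 2.55 FPKM (SD, n = 4 each). For HF_5AzaD against HF_PBS the log2 difference was -0.51 (SE 0.33, 95% interval -1.22 to 0.20, adjusted p = 0.79).

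Slc32a1 was at 50.1, 41.1, 43.2 and 42.7 FPKM in chow and at 31.8, 40.6, 32.0 and 80.1 FPKM in HF. It was at 42.7, 40.2, 84.3 and 31.5 FPKM in HF_PBS and at 34.6, 29.3, 29.6 and 40.2 FPKM in HF_5AzaD. HF 8 and HF_PBS 3 stood above all other libraries, and the 4 HF_5AzaD libraries all lay below the 4 chow libraries. Such a lack of overlap was shown by 1 of the 9 genes for HF_5AzaD against chow and by 27.2% of all loci. In the remaining comparisons 0 of 9 did, beside 6.95% of loci for HF against chow, 2.4% for HF_5AzaD against HF_PBS, 21.2% for HF_PBS against HF, 33.3% for HF_PBS against chow and 17.7% for HF_5AzaD against HF. The log2 difference of Slc32a1 for HF_5AzaD against chow was -0.41 (SE 0.29, 95% interval -1.03 to 0.22, adjusted p = 0.329). With only those 2 groups in the fit, the same difference had an adjusted p of 0.0478. HF 8 and HF_PBS 3 also had raised sums of striatal genes, whose projection neurons release GABA. In HF_PBS 4 and HF_PBS 2, whose striatal sums were also raised, Slc32a1 was within the range of the other libraries. The part of the tissue mix in these values was not tested.

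**Figure D2:**
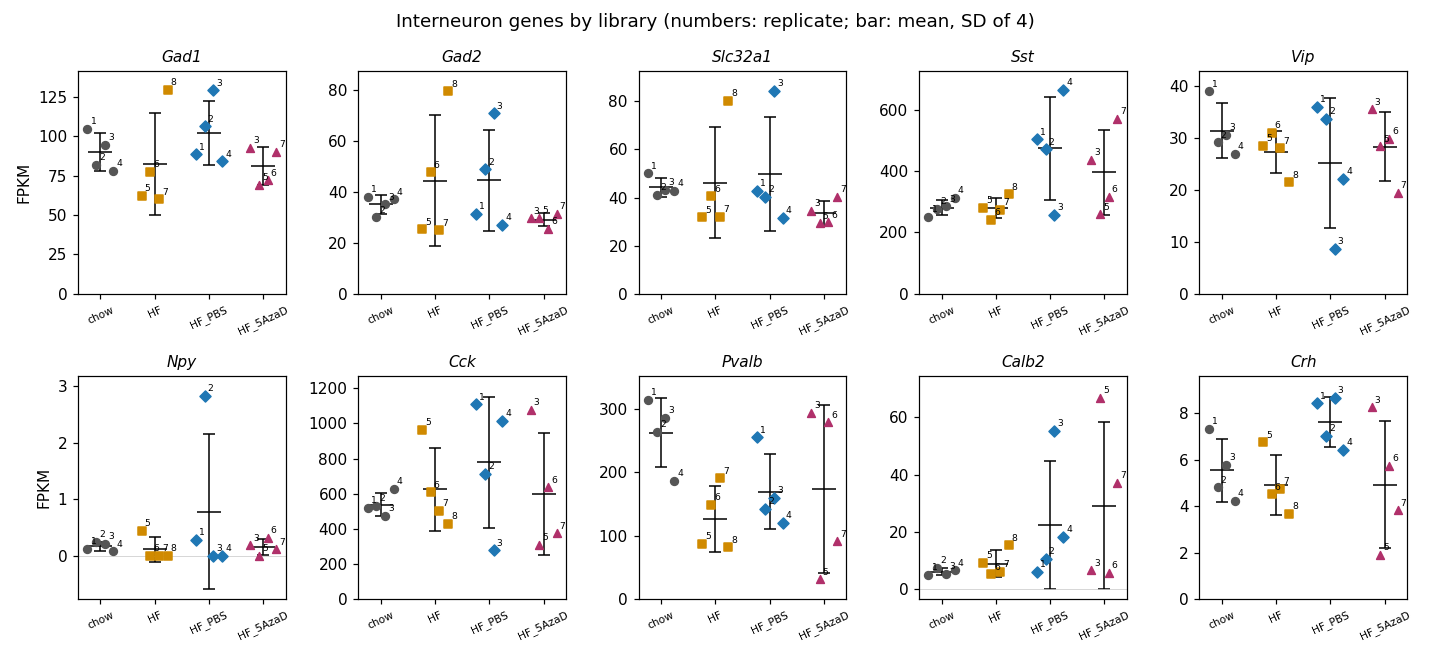
FPKM of the 10 interneuron genes in each library, by group, with replicate numbers beside the points and bars for the mean and SD of 4 libraries. HF 8 and HF_PBS 3 are the highest for Gad1, Gad2 and Slc32a1, and HF_PBS 3, HF_5AzaD 5 and HF_5AzaD 7 for Calb2.

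Sst, the peptide of dendrite-targeting interneurons, came nearest to a difference between groups. It was at 251, 277, 285 and 312 FPKM in chow and at 281, 241, 273 and 324 FPKM in HF. It was at 504, 471, 257 and 665 FPKM in HF_PBS and at 436, 259, 316 and 571 FPKM in HF_5AzaD. HF_PBS 1, 2 and 4 and HF_5AzaD 3 and 7 stood above every uninjected library, while HF_PBS 3 and HF_5AzaD 5 and 6 lay within the uninjected range. The group means were 281 ± 25.4 FPKM in chow, 280 ± 34.0 FPKM in HF, 474 ± 168 FPKM in HF_PBS and 396 ± 138 FPKM in HF_5AzaD (SD, n = 4 each). The log2 difference was 0.69 (SE 0.26, 95% interval 0.13 to 1.25, adjusted p = 0.0696) for HF_PBS against HF and 0.68 (SE 0.26, 95% interval 0.12 to 1.24, adjusted p = 0.0654) for HF_PBS against chow. Without HF_PBS 3 these differences were 0.96 (adjusted p = 0.0136) and 0.95 (adjusted p = 0.0153), both past the threshold. HF_PBS 3 is the lowest HF_PBS library for Sst, so leaving it out had to raise both differences. It is also the library with the least Slc17a7 and the highest hypothalamic and septal sum. For HF_5AzaD the differences were 0.44 against HF and 0.43 against chow, with adjusted p of 0.262 and 0.252. HF and chow had a log2 difference of -0.01 with a 95% interval from -0.57 to 0.55.

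Vip, the peptide of disinhibitory interneurons, was lowest in 1 HF_PBS library. It was at 39.0, 29.2, 30.5 and 26.9 FPKM in chow and at 28.4, 31.0, 28.0 and 21.5 FPKM in HF. It was at 36.0, 33.7, 8.64 and 22.1 FPKM in HF_PBS and at 35.5, 28.4, 29.8 and 19.5 FPKM in HF_5AzaD. The low value is HF_PBS 3, and the next lowest are HF_5AzaD 7, HF 8 and HF_PBS 4. The lowest adjusted p of Vip in the 6 comparisons was 0.28, for HF_PBS against chow.

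Cck, a peptide of both interneurons and pyramidal cells, had the highest level of the 10 genes. It was at 521, 530.5, 474 and 628 FPKM in chow and at 964, 608, 504 and 427 FPKM in HF. It was at 1109.8, 714, 278 and 1014 FPKM in HF_PBS and at 1078, 308, 636 and 374 FPKM in HF_5AzaD. HF 5, HF_PBS 1 and 4 and HF_5AzaD 3 were high and HF_PBS 3 and HF_5AzaD 5 low, so the injected groups each spanned more than a 3.5-fold range. The chow libraries spanned a 1.33-fold range. The 6 adjusted p of Cck ran from 0.545 to 0.985.

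Crh, the stress peptide that a small set of cortical interneurons also makes, was low. It was at 7.33, 4.80, 5.77 and 4.23 FPKM in chow and at 6.74, 4.50, 4.74 and 3.68 FPKM in HF. It was at 8.41, 7.03, 8.66 and 6.43 FPKM in HF_PBS and at 8.25, 1.90, 5.74 and 3.81 FPKM in HF_5AzaD. The HF_PBS libraries overlapped those of each other group, and the lowest library was HF_5AzaD 5. The log2 difference was 0.61 (SE 0.31, 95% interval -0.05 to 1.26, adjusted p = 0.163) for HF_PBS against HF and -0.73 (SE 0.31, 95% interval -1.39 to -0.07, adjusted p = 0.635) for HF_5AzaD against HF_PBS. The latter was the only difference of the 9 genes with an unadjusted p under 0.05 in that comparison, beside 7.42% of all loci.

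Pvalb, the calcium-binding protein of fast-spiking cells, had its highest group mean in chow and the largest spread after Calb2. It was at 315, 264, 286 and 187 FPKM in chow and at 87.2, 149, 190.5 and 81.8 FPKM in HF. It was at 256, 143, 159 and 121 FPKM in HF_PBS and at 294, 31.0, 279 and 91.3 FPKM in HF_5AzaD. HF 5, 6 and 8 lay below all chow libraries and HF 7 did not, so the groups overlapped by 1 library on each side. HF_5AzaD was split, with replicates 3 and 6 at the chow level and replicates 5 and 7 below 92 FPKM. The log2 difference for HF against chow was -1.11 (SE 0.56, 95% interval -2.31 to 0.08, adjusted p = 0.723). It was -0.66 (SE 0.56, 95% interval -1.86 to 0.53, adjusted p = 0.378) for HF_PBS and -1.06 (SE 0.56, 95% interval -2.25 to 0.14, adjusted p = 0.187) for HF_5AzaD, each against chow.

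Calb2, which encodes calretinin, was low in all chow libraries and high in a few others. It was at 4.98, 7.40, 5.26 and 6.54 FPKM in chow and at 9.11, 5.15, 5.93 and 15.3 FPKM in HF. It was at 5.95, 10.6, 55.3 and 18.2 FPKM in HF_PBS and at 6.50, 66.9, 5.55 and 37.1 FPKM in HF_5AzaD. HF_5AzaD 5, HF_PBS 3 and HF_5AzaD 7 stood apart, followed by HF_PBS 4, HF 8 and HF_PBS 2, while the remaining libraries lay between 4.98 and 9.11 FPKM. These 6 libraries also had the highest hypothalamic and septal sums, but most of each sum was a single gene, Nnat, which encodes neuronatin and was chosen after its values were seen. Nnat was at 53.5, 67.4, 37.9 and 56.8 FPKM in chow and at 140.3, 58.5, 101 and 372 FPKM in HF. It was at 96.5, 294, 953 and 393 FPKM in HF_PBS and at 77.6, 1126, 79.6 and 704 FPKM in HF_5AzaD, high in the libraries that were high for Calb2. All 9 tested genes of that list had positive log2 differences for HF, HF_PBS and HF_5AzaD against chow. So had all 9 for HF_PBS against HF, 6 for HF_5AzaD against HF and 0 for HF_5AzaD against HF_PBS. Because the list was chosen after its values were seen, these counts are a description only. In single libraries its other genes did not all follow Nnat. In HF_5AzaD 5, Oxt and Avp, at 8.83 and 6.08 FPKM, were above all uninjected libraries, while Gal, Gnrh1, Pomc and Zic1, at 0.909, 0.254, 0.947 and 5.46 FPKM, were not. The part of the tissue mix in Calb2 was not tested. The log2 differences of Calb2 were the least precise of the 9 genes, at 0.94 (SE 0.74, 95% interval -0.64 to 2.52, adjusted p = 0.37) for HF_PBS against HF and 1.35 (SE 0.74, 95% interval -0.23 to 2.93, adjusted p = 0.175) for HF_PBS against chow. HF_5AzaD had 1.49 (SE 0.74, 95% interval -0.09 to 3.06, adjusted p = 0.164) against chow and 1.07 (SE 0.74, 95% interval -0.51 to 2.65, adjusted p = 0.332) against HF.

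**Figure D3:**
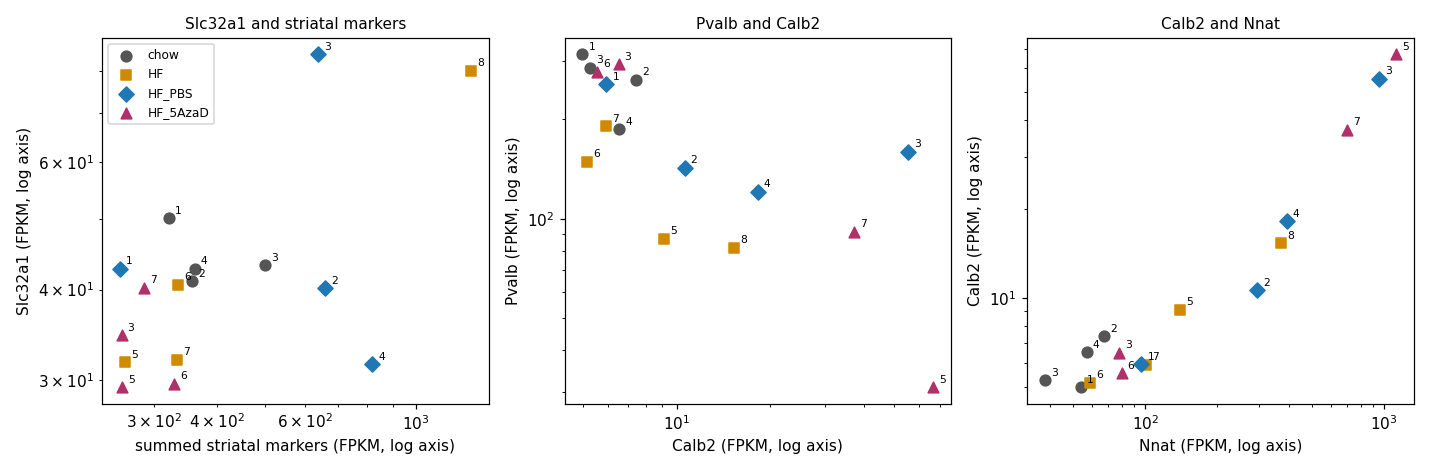
FPKM per library on log axes, with replicate numbers and a marker for each group: Slc32a1 against the sum of 17 striatal genes, Pvalb against Calb2, and Calb2 against Nnat. HF_PBS 3 and HF_5AzaD 5 and 7 are the libraries with the most Calb2 and the most Nnat, and HF 8 has the highest striatal sum.

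Npy is known as an abundant peptide of cortical interneurons, yet both loci that carry its symbol in the table were at or near 0. The locus with the higher mean was at 0.125, 0.247, 0.213 and 0.0752 FPKM in chow and at 0.442 FPKM in HF 5, and it was listed at 0 in HF 6, 7 and 8. It was at 0.282 FPKM in HF_PBS 1 and 2.83 FPKM in HF_PBS 2, and was listed at 0 in HF_PBS 3 and 4. In HF_5AzaD it was at 0.183, 0, 0.322 and 0.115 FPKM. The second locus was listed at 0 in every library but chow 4, where it was at 1.35 FPKM. The low values hold for all 4 groups, and the cause was not tested. When all loci above 0 were tested without a minimum level, the adjusted p of Npy ran from 0.424 to 0.982 in the 6 comparisons.

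In the chow libraries the order of the levels per length was Cck, Sst, Pvalb, Gad1, Slc32a1, Gad2, Vip, Calb2, Crh and Npy, from 538 ± 64.8 FPKM down to 0.165 ± 0.0787 FPKM (SD, n = 4). Of the 9 neighbouring pairs in that order, 6 had ranges that did not overlap, and Sst and Pvalb, Gad2 and Vip, and Calb2 and Crh overlapped. The same first 9 genes stood in the same order in HF and HF_PBS, where 4 and 2 of the 9 neighbouring pairs did not overlap. In HF_5AzaD, with 3 such pairs, Calb2 stood above Gad2 and Vip, at 29.0, 29.0 and 28.3 FPKM, and these 3 overlapped. Cck was above 99.1% of the tested loci by its mean over all libraries, and Crh above 37.1%.

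Within groups, the genes that make and package GABA went up and down together. Correlations of log2(FPKM + 0.5) were computed for all 36 pairs over the 16 libraries with group means removed, with p from exact permutation within groups. Gad1 and Slc32a1 had Pearson's r = 0.90 (p = 0.000304, 0.011 adjusted over the 36 pairs) and Spearman's rho = 0.88 (p = 0.000434, adjusted 0.0156). Gad1 and Gad2 had r = 0.89 (p = 0.000835, adjusted 0.0127) and rho = 0.79 (p = 0.00587, adjusted 0.0705). Gad2 and Slc32a1 had r = 0.90 (p = 0.00105, adjusted 0.0127) and rho = 0.72 (p = 0.0107, adjusted 0.0769). Without HF 8 and HF_PBS 3 the 3 correlations were 0.82, 0.76 and 0.75, lower than with these libraries. For these and for the reduced sets of Calb2 below, the group means of all 16 libraries were kept. The left-out libraries therefore still shifted the values that remained, and these correlations are not free of their influence. Calb2 had a negative correlation past the threshold with 2 of the other 8 genes, Pvalb and Vip. Its r was -0.82 with Pvalb (p = 0.00579, adjusted 0.0417; rho -0.80, p = 0.00795, adjusted 0.0716), and -0.72 without HF_5AzaD 3 and 5. With Vip its r was -0.73 (p = 0.00417, adjusted 0.0375; rho -0.79, p = 0.00105, adjusted 0.0189), and -0.59 without HF_PBS 1 and 3. The other 31 pairs had an adjusted Pearson p of at least 0.103. Libraries share their tissue mix across genes, and its part in these correlations was not tested.

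**Figure D4:**
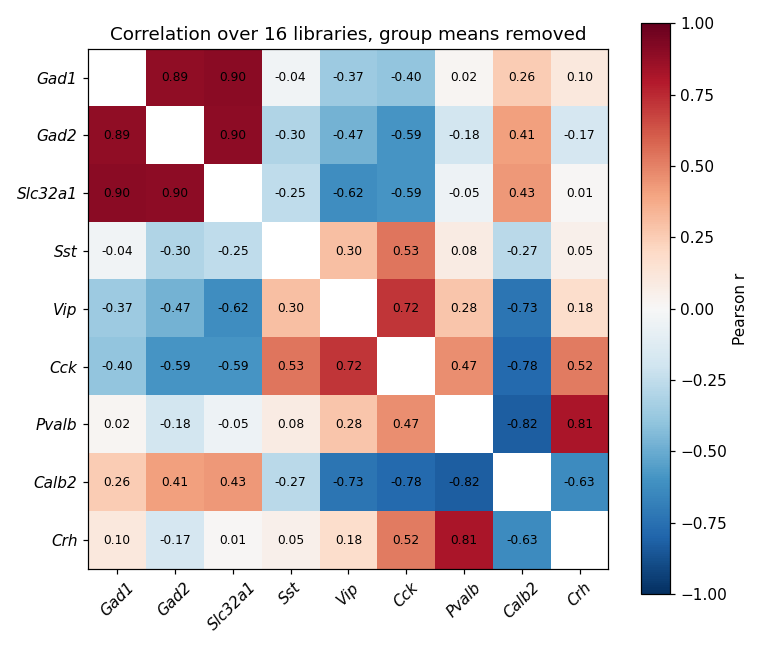
Pearson correlation of log2(FPKM + 0.5) between each pair of the 9 tested interneuron genes over 16 libraries with group means removed. Gad1, Gad2 and Slc32a1 form a block at 0.89 to 0.90, and Calb2 is at -0.82 with Pvalb and -0.73 with Vip.

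Over all tested loci, the genes most like each member in the same within-group values are given as a description. The nearest genes of Gad1 were Slc32a1, Nsg1 and Gad2 (r = 0.90, 0.90 and 0.89), those of Gad2 were Slc32a1, Gad1 and Pik3c2a (0.90, 0.89 and 0.88), and those of Slc32a1 were Gad1, Gad2 and P2ry1 (0.90, 0.90 and 0.85). The nearest to Pvalb were Syt2, Cdh20 and Rcan2, all at r = 0.96. Syt2 encodes a synaptic vesicle calcium sensor known from terminals of fast-spiking interneurons. The nearest to Calb2 were Nnat, Tekt1 and the locus of Mir7a-2 (0.97, 0.96 and 0.95). Sst was most like Abt1, Vps37b and Mepe (0.86, 0.86 and 0.84), of which Vps37b had r = 0.39 when group means were left in. Vip was most like Fgfr1op2, Hapln1 and Itpka (0.98, 0.96 and 0.95), Cck most like Kcnmb4, Khdrbs3 and Incenp (0.98, 0.97 and 0.94), and Crh most like Txnl4b, Kcne2 and Dynll2 (0.92, 0.90 and 0.90).

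Other genes of the GABA pathway and of interneurons held 33 calls in 4 lists, all of them between injected and uninjected groups. Of the 56 genes tested in these lists, 12.5% passed for HF_PBS against HF, 21.4% for HF_PBS against chow, 12.5% for HF_5AzaD against chow and 12.5% for HF_5AzaD against HF. The shares over all loci were 23.9%, 28.2%, 16.3% and 14.2%, so the 56 pooled genes held no larger share of calls than the table as a whole. By single list, the share was larger than that of all loci in some cases and smaller in others. Signs were kept for all 33 when any 1 library of the groups compared was left out, but only 6 of the calls held each time. Of the 9 genes that make, move or break down GABA, Gad1, Gad2 and Slc32a1 among them, 0 rose and 1 fell for HF_PBS against HF and for HF_PBS against chow. Slc38a1, a glutamine transporter that feeds GABA synthesis, was that gene. It was at 49.5, 50.2, 49.7 and 54.6 FPKM in chow and at 44.3, 62.5, 43.6 and 46.2 FPKM in HF. It was at 34.3, 33.6, 31.1 and 23.7 FPKM in HF_PBS and at 32.5, 24.5, 34.5 and 24.4 FPKM in HF_5AzaD, so that every injected library lay below every uninjected one. By single comparison, 21.2% of all loci did not overlap for HF_PBS against HF and 33.3% for HF_PBS against chow. For HF_5AzaD these shares were 17.7% against HF and 27.2% against chow. The share of loci with all injected libraries apart from all uninjected ones was not computed. Slc38a1 fell by 0.67 on the log2 scale for HF_PBS against HF (SE 0.15, adjusted p = 0.00726) and by 0.74 for HF_PBS against chow (SE 0.15, adjusted p = 0.00474). For HF_5AzaD it fell by 0.75 against HF (adjusted p = 0.0103) and by 0.82 against chow (adjusted p = 0.00858). Its 4 calls held without any 1 library, at an adjusted p of at most 0.0412.

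The enzymes that break down GABA fell in HF_5AzaD against chow. For HF_5AzaD against chow, where 16.3% of all loci passed, 0 of the 9 genes rose and 3 fell. Beside Slc38a1, those that fell were Abat, the GABA transaminase, at -0.90 (SE 0.28, adjusted p = 0.0432), and Aldh5a1, which oxidises its product, at -0.43 (SE 0.12, adjusted p = 0.0279). Against HF, where 14.2% of all loci passed, 1 rose and 2 fell. Beside Slc38a1, these were Aldh5a1 at -0.46 (SE 0.12, adjusted p = 0.0229) and Slc6a13, a GABA transporter of the meninges and vessels, at 1.42 (SE 0.38, adjusted p = 0.026). The adjusted p of Abat against chow was above 0.05 when any 1 of 7 of the 8 libraries was left out, all but HF_5AzaD 5, and reached 0.137. That of Aldh5a1 was above 0.05 without any 1 of the chow libraries or HF_5AzaD 7, and reached 0.101. Without HF_5AzaD 7, which had 12.7 FPKM of Slc6a13, or without HF 5, 6 or 8, the call of that gene was lost. The list's median log2 difference was 0.07 for HF_PBS against HF, 0.07 for HF_PBS against chow, -0.34 for HF_5AzaD against chow and -0.36 for HF_5AzaD against HF.

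Of 17 transcription factors of interneurons, 13 were tested. For HF_PBS against chow, where 28.2% of all loci passed, 1 rose and 3 fell. Among those that fell, Maf, which acts in Sst and Pvalb cells, was at -1.05 (SE 0.23, adjusted p = 0.00667). Satb1, which promotes the maturation of Sst cells and is also found in other neurons, was at -1.36 (SE 0.40, adjusted p = 0.0229). For HF_5AzaD against chow, where 16.3% of all loci passed, 0 rose and 3 fell. Among those 3 were Satb1 at -1.56 and Sox6 at -0.67 (adjusted p = 0.0233 and 0.0492). Sox6, which acts in Sst and Pvalb cells, also fell for HF_5AzaD against HF, by 0.84 (adjusted p = 0.0241). It was the only one of the 13 called there, beside 14.2% of all loci. For HF_PBS against HF 0 of 13 passed, beside 23.9% of all loci. Satb1 was at 35.3, 38.3, 36.2 and 40.4 FPKM in chow and 30.2, 31.3, 38.2 and 17.9 FPKM in HF. It was at 22.2, 17.5, 9.69 and 11.0 FPKM in HF_PBS and 21.7, 7.19, 24.6 and 5.88 FPKM in HF_5AzaD, with HF 8 the lowest of the uninjected libraries and HF_5AzaD 5 and 7 the lowest of all. Only the call of Maf held when each library was left out, with an adjusted p of at most 0.0267. Lhx6, the factor that defines interneurons of the medial ganglionic eminence, passed in 0 of the 6 comparisons, with a lowest adjusted p of 0.19, and was highest in HF_PBS 3 at 12.1 FPKM.

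Of 28 further genes of interneuron classes, 23 were tested. For HF_PBS against HF and for HF_PBS against chow 1 rose and 2 fell each, beside 23.9% and 28.2% of all loci called. For HF_5AzaD against HF 1 rose and 1 fell, beside 14.2% of all loci. Pnoc, the precursor of the opioid-like peptide nociceptin, rose for HF_PBS against HF, at 0.76 (SE 0.22, adjusted p = 0.0252), and against chow, at 0.63 (SE 0.22, adjusted p = 0.0492). Its value in HF_PBS 3, 22.9 FPKM, stood above the 9.21 to 12.1 FPKM of the other HF_PBS libraries, and without HF_PBS 3 the call against chow was lost. Beside it, 2 genes fell for HF_PBS against HF: Erbb4, the neuregulin receptor of interneurons, at -1.43, and Vwc2l, at -0.61 (adjusted p = 0.0254 and 0.048). For HF_PBS against chow 2 genes of fast-spiking cells fell: the potassium channel gene Kcnc1, at -1.0 (SE 0.32, adjusted p = 0.0305), and Syt2, at -2.09 (SE 0.70, adjusted p = 0.0371). Pvalb did not pass there, nor did Kcnc2, Cox6a2 and Pthlh of the same list, at -0.53, -1.64 and 0.15 (adjusted p = 0.181, 0.0722 and 0.605). For HF_5AzaD against HF, Calb1, which encodes calbindin, rose, at 0.70, and Erbb4 fell, at -1.61 (adjusted p = 0.0436 and 0.0242). For HF_5AzaD against chow 0 of 23 passed, beside 16.3% of all loci. None of these calls held without each library in turn.

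Of 14 receptor genes for the peptides of interneurons, 11 were tested. Calls were made for 3 of the 11 for HF_PBS against HF and 4 of the 11 for HF_PBS against chow, near the 23.9% and 28.2% of all loci, and all were falls. For HF_PBS against HF the somatostatin receptor genes Sstr1, Sstr3 and Sstr4 fell, at -0.73, -0.62 and -0.83 (adjusted p = 0.0337, 0.0488 and 0.0426). For HF_PBS against chow 4 fell: Crhr1, the main receptor for Crh, at -1.23 (SE 0.28, adjusted p = 0.00707), Sstr1 at -0.87, the receptor gene for Vip named Vipr1 at -1.12 and Sstr3 at -0.62. Crhr1 also fell for HF_5AzaD against chow, at -1.06 (adjusted p = 0.0248), the only call of the 11, beside 16.3% of all loci. Sstr4 fell for HF_5AzaD against HF, at -0.93 (adjusted p = 0.0394), again the only call, beside 14.2% of all loci. Crhr1 was at 11.1, 10.7, 11.3 and 9.31 FPKM in chow and 6.60, 9.41, 9.35 and 5.40 FPKM in HF. It was at 6.50, 5.64, 3.23 and 2.56 FPKM in HF_PBS and 6.36, 3.25, 6.82 and 3.76 FPKM in HF_5AzaD, below every chow library in all 8 injected ones. A lack of overlap with chow, in either direction, was shown by 33.3% of all loci for HF_PBS and by 27.2% for HF_5AzaD. The call of Crhr1 for HF_PBS against chow held without each library in turn, with an adjusted p of at most 0.0278, and the other 8 calls of this list did not. Many of these receptors are expressed by pyramidal cells as well, and the summed level of 11 genes of excitatory neurons was 4219 to 4860 FPKM in chow, 2472 to 5171 FPKM in HF, 1382 to 4382 FPKM in HF_PBS and 2875 to 5297 FPKM in HF_5AzaD; its part in these falls was not tested.

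**Figure D5:**
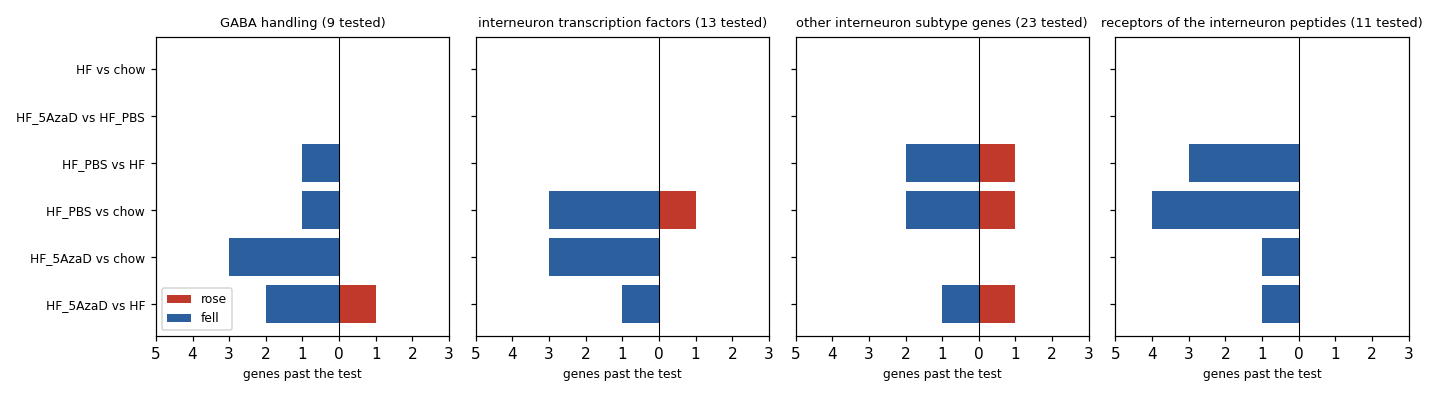
Number of genes that rose or fell at an adjusted p under 0.05 in 4 lists of interneuron and GABA genes, by comparison. HF against chow and HF_5AzaD against HF_PBS have no call in any of the 4 lists, and the receptor list has falls only.

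The lists of other cells were tested in the same libraries. For HF_PBS against chow, where 28.2% of all loci passed, 3 of 11 excitatory genes fell (Camk2a, Rorb and Cux2), 2 of 7 genes of all neurons fell (Rbfox3 and Nefl), 3 of 6 astrocyte genes rose (Aqp4, Gfap and Gja1), and 1 each rose of 7 oligodendrocyte genes (Cldn11), 7 microglial genes (Aif1), 15 striatal genes (Rgs9), 3 striatal peptide genes (Tac1) and 2 cholinergic genes (Chat). For HF_PBS against HF, where 23.9% of all loci passed, Camk2a fell and Aqp4, Cldn11 and Chat rose, each the only call of its list. For HF_5AzaD against chow, where 16.3% of all loci passed, Rorb and the striatal gene Rasd2 fell and Aif1 rose. Against HF, with 14.2% of all loci, the striatal gene Pde10a fell and Chat and the mural gene Vtn rose. Each was again the only call of its list. Of the hypothalamic and septal list, chosen after its values were seen, 5 of 9 genes rose for HF_PBS against chow and 3 of 9 for HF_PBS against HF. It had 0 calls for HF_5AzaD against chow or HF. None of the 7 immediate early genes passed in the 6 comparisons; Fos had a lowest adjusted p of 0.166. HF against chow and HF_5AzaD against HF_PBS had 0 calls in these lists. Drd2 and Slc17a7 did not pass, with lowest adjusted p of 0.15 and 0.0611 for HF_PBS against chow.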

How the data were processed

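Frontal cortex RNA of 16 libraries was analysed from a deposited table of FPKM per locus, made by the authors with a status for each value. Per the labels' protocols, poly-A RNA was reverse transcribed from random hexamers for Illumina sequencing. Per the submitters' processing notes, the tools were Cufflinks and Cuffdiff with TopHat and TopHat2 and with Bowtie and Bowtie2, on the rat build rn5. Versions and strand are not given in the sources used here; without strand, reads of a gene and of its antisense or overlapping partner mix.

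Values were taken as deposited. Loci with the status OK in all libraries and a mean of at least 1 FPKM (14824) were tested with limma 3.58.1 in R 4.3.3 on log2(FPKM + 0.5), 1 mean per group, an intensity trend in the prior, and Benjamini-Hochberg adjustment over all of them; the script was tested on simulated data. A fold change on this scale understates that of low genes. The members and lists were chosen with earlier results of these data known. Of the lists, genes past the test are named, at most 6 per list and comparison, and Slc17a7, Lhx6, Drd2, Rgs9 and Fos throughout; values of some list genes are not reported here. Log2 differences of members are printed at 0.5 or more, where an alternative called them, or where needed to show a gene's range. A symbol on several loci stands for that with the highest mean. Depth in reads is unknown. Alternatives were pseudocounts of 0.1 and 1, no minimum level, quantile and median scaling, a fit of the compared groups alone, a replicate block, any status, summed loci, another prior and each library left out. The deviations of same-numbered libraries correlated at r = -0.303 to 0.0641. These correlations cannot exclude a shared animal or batch, and the numbers were not used as pairs in the main fit. Of the 10 members, 7 had a start region in the RefSeq table; Cck, Calb2 and Crh had none there. Python 3.11.15 with scipy 1.17.1 was used for permutation tests.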

Additional observations from a re-analysis of the deposited data

Results flagged for a closer look

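Each of the 10 genes was examined in each of the 4 groups for a library far from the other 3, by Dixon's ratio of gap to range against its 95% critical value. Chance gives about 1 such library in 20 groups, and 2 of the 40 groups had one, both for Npy. In HF, Npy was at 0.441923 FPKM in replicate 5 and was listed at 0 in the other 3 libraries. In HF_PBS, Npy was at 2.8309 FPKM in replicate 2, and the other 3 libraries were at 0, 0 and 0.282 FPKM. Values this low can be a few fragments, and an exact 0 in such a table can be a failed estimate. Both Npy loci had the status OK in all libraries, so no Npy value was flagged as failed.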

How the results depend on the processing

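The count of interneuron genes past the test was 0 in all 6 comparisons and stayed there under pseudocounts of 0.1 and 1, no minimum level, quantile normalization, median scaling, any status, summed loci and a robust prior without trend. It was 1 for HF_5AzaD against chow with only the groups compared in the fit (Slc32a1). With 1 library left out in turn it ran from 0 to 1 for HF_PBS against HF (1 without HF 8, Gad1, and 1 without HF_PBS 3, Sst) and from 0 to 1 for HF_PBS against chow (1 without HF_PBS 3, Sst), and it was 0 each time in the other 4. Under both settings added after seeing the data, without HF 8 and HF_PBS 3 and without HF_PBS 3 and 4 and HF_5AzaD 5 and 7, it was 1 for HF_PBS against HF and 1 for HF_PBS against chow, in each case Sst. Its log2 difference was then 1.03 and 0.81 against HF (adjusted p = 0.0212 and 0.0236) and 0.95 and 0.80 against chow (adjusted p = 0.0185 and 0.0247). For Sst, HF_PBS 3 is the lowest HF_PBS library (257 FPKM), HF 8 the highest HF library (324 FPKM) and HF_PBS 4 the highest HF_PBS library (665 FPKM). Leaving out HF_PBS 3 or HF 8 by itself raises the difference, so nothing is read from these calls of Sst. The second setting reversed Calb2 for HF_PBS against HF (-0.02662) and HF_5AzaD against HF (-0.4052) and Pvalb for HF_5AzaD against chow (0.1502). These libraries were chosen for their high Calb2 and include the 2 HF_5AzaD libraries that were lowest in Pvalb. The choice itself moved these differences in the direction of the reversed sign, so nothing is read from the changes.

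With a replicate block, run for HF_PBS against chow and HF_5AzaD against HF, the count was 0 and 0 (lowest adjusted p of a member 0.0846 and 0.136), and 3258 and 54 of all loci were called, beside 4173 and 2112. No paired analysis was possible for the other 4 comparisons because their groups share fewer than 2 numbers. Of 270 recomputed values of the 14 larger or called differences, 3 changed sign and 8 crossed the threshold; of 774 for the other 40, 68 changed sign and 0 crossed. Of the 33 calls in the interneuron lists, 16 held without HF 8 and HF_PBS 3 and 11 without HF_PBS 3 and 4 and HF_5AzaD 5 and 7. Library medians lay -0.04 to 0.05 from their mean on the log2 scale. With 4 libraries a group, the 95% interval of each of the 6 differences of Calb2 and of Pvalb included 0.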
